A study of Mus musculus with 7 samples.

Results

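Regions where Shox2 was found in both the limb and the palate of the mouse embryo, and where Pbx was found in the limb as well, numbered 781. They were chosen by the peak lists themselves, as limb Shox2 peaks that overlap a limb Pbx peak by at least 1 bp and also hold at least 1 position of the palate Shox2 list. They make up 781 of 33915 limb Shox2 peaks (2.30%). They are named 3-list sites below.

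The study mapped these proteins by chromatin immunoprecipitation and sequencing (ChIP-seq) in freshly dissected embryonic tissue. Of its 7 libraries, 3 are used here, each from E12.5 embryos (E stands for embryonic day): a limb and a palate library for Shox2, and a limb library for Pbx. In both Shox2 libraries the tissue carried Shox2-HA, a Shox2 protein with an HA epitope tag, and was precipitated with an antibody against HA. For Pbx the antibody was raised against Pbx proteins, and the labels give no tag and do not say which Pbx proteins it binds. Each group has 1 library. The labels do not give a strain, or how many embryos were pooled. The other 4 (a later limb stage for Shox2, mixed limb and palate, a control titled as untagged, and input) were not analysed here. No list of background regions was therefore set beside the sites.

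Shox2 is a homeodomain transcription factor. In the limb it is needed for the skeleton of the segment next to the trunk, the stylopod, and in the palate for growth of the anterior palatal shelves. Pbx proteins are TALE homeodomain factors, known for binding DNA together with other homeodomain proteins such as Hox, Meis and Prep. In the limb, Pbx proteins are needed for the proximal skeleton too. A ChIP-seq peak shows where a protein was bound or held near DNA, and does not tell an active from an inactive regulatory element.

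The deposited lists give a chromosome, a start and an end, and no height, score or p-value. Sequencing depth is therefore unknown, and no value here has an error from reads or from replicate embryos. Intervals in brackets are exact (Clopper-Pearson) 95% binomial intervals. They cover the counting of sites alone and treat neighbouring sites as independent, so they are too narrow. No p-value is given, because membership was fixed by the lists that are described. Positions are those of mouse build mm9, counted from 1. Neither genes nor sequences are given for the sites, because neither an annotation nor a genome of that build was used here.

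Seen from each list, the 3-list sites are a small share. They are 8.68% (8.11 to 9.28%) of the 8999 limb Shox2 peaks on Pbx, which is the share of those peaks with a palate position, and over all limb Shox2 peaks that share was 6.28%. They are 36.7% (34.6 to 38.8%) of the 2129 limb Shox2 peaks with a palate position, which is the share of those on Pbx, and over all limb Shox2 peaks that share was 26.5%. Both backgrounds come from the lists of the rule, so nothing is read from the differences. The sites met 774 Pbx peaks (2.28% of that list) and held 793 palate positions (5.25% of that list). All 781 are also in the deposited list of regions co-occupied by Shox2 and Pbx, whose 8999 regions are limb Shox2 peaks and which therefore adds no measurement. In total the sites cover 363.4 kb.

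The 6 sites with the highest combined place in the 3 lists are shown first, since they carry the top of the overlap. Place means the line of the file divided by the length of the list. Whether the authors sorted the lists by strength is not stated, so place is a description of the file and may or may not be a rank. Peak width falls down both limb lists (Spearman's rho of width with line -0.58 across the 33915 Shox2 peaks and -0.51 across the 33915 Pbx peaks).

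The site with the lowest sum of places was chr8:27939013-27939288, a limb Shox2 peak of 276 bp on line 217. It lay inside a Pbx peak of 1142 bp on line 925 (chr8:27938537-27939678). Its palate position, 27939097, stood on line 63 of the palate list and fell 53.5 bp to the left of the Shox2 peak centre. Within 50 kb it had 8 other limb Shox2 peaks, 8 other Pbx peaks and 1 other palate position. The other 5 had at most 1 other limb Shox2 peak that near.

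The next was chr6:143386431-143387444, a Shox2 peak of 1014 bp on line 6, the highest limb Shox2 line of the 6. Its Pbx peak was 3079 bp wide and on line 475, and its palate position was on line 516, 152.5 bp from the Shox2 centre. No other limb Shox2 peak and no other palate position lay within 50 kb, so this site stood alone in its neighbourhood for Shox2. The third, chr4:116987558-116987835, was 278 bp wide and on line 743, with a Pbx peak on line 1166 and a palate position on line 45.

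On chromosome 1, chr1:13760970-13762282 was 1313 bp wide (line 952), with its Pbx peak on line 801 and its palate position on line 256. Unlike the other 5 it was not wholly inside the Pbx peak, with 1033 bp shared. A second site on that chromosome, chr1:94668926-94669235, was 310 bp wide on line 619, with Pbx on line 1240 and the palate position on line 225. The last of the 6, chr13:56430384-56430927, was 544 bp wide on line 355, with Pbx on line 1987. Its palate position stood on line 23 of the palate list and had 7 other palate positions within 50 kb, against 0 to 2 at the other 5. In all 6 sites the palate position lay within 203 bp of the Shox2 centre. Over all 793 positions at the sites the upper quartile of that distance was 120.5 bp, so this did not set the 6 apart. In the peaks of 276, 278 and 310 bp the rule alone keeps the position that near. Shox2 peak widths of the 6 ran from 276 to 1313 bp, so a high joint place did not go with 1 peak width.

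Sites found in all 3 lists stood high in each list. Of the 781, 260 (33.3%) were in the first decile (10% of the lines) of the limb Shox2 list, 184 (23.6%) in that of the Pbx list and 210 (26.9%) in that of the palate list. The median place was 19.4% down the limb Shox2 list, 26.6% down the Pbx list (774 peaks) and 25.9% down the palate list (793 positions). Limb Shox2 peaks with Pbx but without a palate position had their median 35.1% down the limb Shox2 list, those with a palate position but without Pbx 35.8%, and those with neither 55.9%. The 3-list sites thus lay higher in the limb list than either kind of 2-list site, a description of the lists that chose them. In the other lists the nearest classes stood less far below. Pbx peaks that met other limb Shox2 peaks had their median 33.6% down the Pbx list, and those that met none 54.9%. Palate positions in limb Shox2 peaks off Pbx had theirs 31.5% down the palate list, those on Pbx only 48.5%, and those in neither 53.7%.

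The share of entries at 3-list sites fell from the top of each list to its bottom. In the limb Shox2 list it was 7.67% in the first decile, 4.04% in the second, 1.59% in the fifth and 0.767% in the last. In the Pbx list it went from 5.40% to 1.03%. In the palate list it went from 13.9% to 2.05%. Among the first 100 lines, 18 limb Shox2 peaks, 18 palate positions and 2 Pbx peaks belonged to 3-list sites. The interval of the Pbx count (0.243 to 7.04% of 100 lines) holds both the share over the whole Pbx list and that of its first decile. Among the first 1000 lines, 113 limb Shox2 peaks, 149 palate positions and 52 Pbx peaks belonged to 3-list sites.

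**Figure D1:**
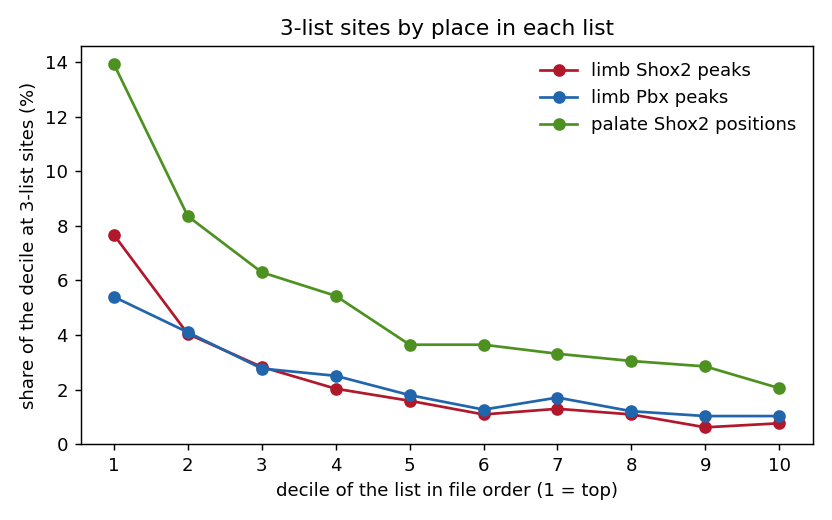
Share (%) of limb Shox2 peaks, limb Pbx peaks and palate Shox2 positions that belong to 3-list sites, in each decile of the respective list in file order; points are deciles of 1 library each, with no replicate error. All 3 lines are highest in decile 1 (7.67, 5.40 and 13.9%) and are at 0.767, 1.03 and 2.05% in decile 10.

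Among sites shared by the tissues, the share on Pbx fell along the limb list, as it did among all limb Shox2 peaks. With a palate position, 56.2% of the 463 limb Shox2 peaks in the first limb decile were on Pbx and 20.5% of the 127 in the last. Of all limb Shox2 peaks, 1895 of the 3391 in the first limb decile were on Pbx and 611 of the 3392 in the last. The fall was thus not particular to shared sites. Along the palate list the share on Pbx at shared sites moved less. Of palate positions in a limb Shox2 peak, 42.9% of the 489 in the first palate decile belonged to 3-list sites, 30.7% of the 179 in the sixth and 34.8% of the 89 in the last. At shared sites the share on Pbx thus ranged from 20.5 to 56.2% over limb deciles and from 30.7 to 42.9% over palate deciles, a difference that was not tested. Along the Pbx list only a different share can be followed, because all its entries are Pbx peaks. Of Pbx peaks that met a limb Shox2 peak, 183 of the 1463 in the first Pbx decile held a 3-list site. In the last Pbx decile 35 of the 437 did (8.01%). This share was lower in the last decile than in the first, but unevenly so, with 6.505% in the sixth and 10.3% in the seventh.

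Within the 781 sites, place in one list went only weakly with place in another. Spearman's rho across sites was 0.07 between limb Shox2 and palate lines, 0.10 between limb Shox2 and Pbx lines, and 0.05 between Pbx and palate lines. Both limb lists come from the same tissue and stage, and both Shox2 lists from the same antibody. These rho values stand beside 0.12 between limb and palate Shox2 lines at the 1348 tissue-shared peaks off Pbx, and 0.15 between Shox2 and Pbx lines at the 8218 peaks on Pbx without a palate position. The first decile of all 3 lists held 37 sites (4.74%, 3.36 to 6.47%), while 322 (41.2%) were in no first decile. What unrelated places would give was not worked out, so neither count is read as low or high. In the first 50% of all 3 lists stood 320 sites (41.0%), and in the last 50% of all 3 stood 10 (1.28%).

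Limb Shox2 peaks at 3-list sites were the widest of the 4 classes by their median. Their median width was 383 bp (quartiles 268 and 595 bp, range 170 to 2282 bp), against 321 bp with Pbx alone, 309 bp with a palate position alone, 242 bp with neither and 261 bp in the whole list. Peaks of 500 bp or more made up 34.1% (30.7 to 37.5%) of the 3-list sites and 12.1% of all limb Shox2 peaks. The classes overlapped widely, with the lower quartile of the 3-list sites below the medians of both 2-list classes. Width is bound to the rule, because a wide peak has more bases that can meet another list.

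**Figure D2:**
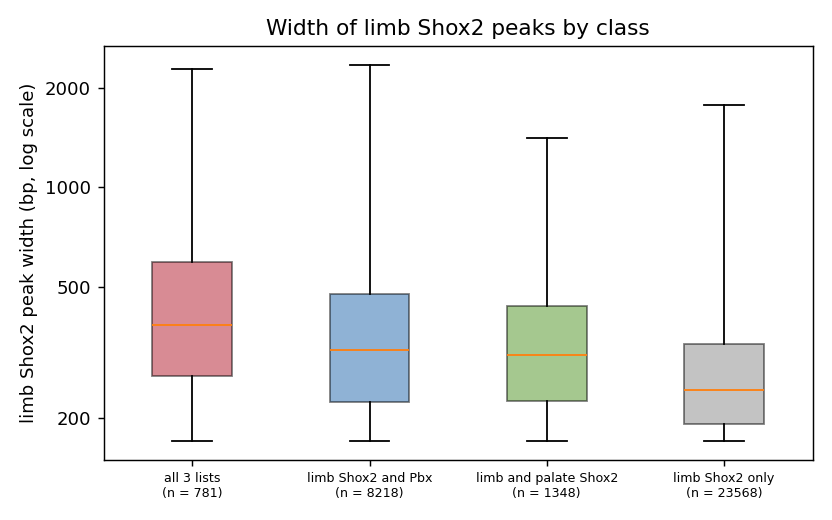
Width of limb Shox2 peaks (bp, log scale) at 3-list sites and in the 3 other classes; the line in each box is the median, the box spans the quartiles and the whiskers reach the narrowest and widest peak. Medians are 383, 321, 309 and 242 bp from left to right, and all 4 classes start at 170 bp.

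Width and place moved together, also among the 781 sites (Spearman's rho of width with limb Shox2 line -0.67 across sites). In the first decile of the limb list the median width was 600.5 bp for 3-list sites, 556 bp for peaks with Pbx alone, 491 bp with a palate position alone and 460 bp with neither. From the second to the last decile the 3-list sites and the peaks with Pbx alone had similar medians, for example 410 and 419 bp in the second and 217 and 211 bp in the last. Beside peaks with Pbx alone, the wider peaks of 3-list sites thus went largely with their place at the top of the list. Peaks with neither had a lower median than 3-list sites in every decile, for example 361 bp in the second and 203 bp in the last.

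By width, 7.25% of the widest decile of limb Shox2 peaks (533 to 2358 bp) were 3-list sites and 0.767% of the narrowest decile (170 to 174 bp). When every limb Shox2 and Pbx peak was set to 200 bp around its centre, 363 peaks met both other lists. They were 2.48% of the decile that was widest as deposited and 0.531% of the narrowest, a smaller ratio between the deciles than at the deposited widths. Pbx peaks at 3-list sites were wide too, with a median of 1247.5 bp (774 peaks). The 7153 Pbx peaks that met other limb Shox2 peaks had a median of 1052 bp, and the 25988 that met none 853 bp.

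Inside the sites, the 3 marks lay close together, as the rule in part requires. The palate position was a median of 65 bp from the centre of the limb Shox2 peak (quartiles 31 and 120.5 bp, 793 positions), and 305 positions (38.5%) were within 50 bp. The centres of the limb Shox2 and Pbx peaks were a median of 134.5 bp apart (781 sites), against 142.5 bp at the 8218 peaks on Pbx without a palate position. From the palate position to the Pbx centre the median was 139 bp, and 554 positions (69.9%, 66.5 to 73.0%) were nearer to the Shox2 centre than to the Pbx centre. The rule places each palate position inside the limb Shox2 peak, mostly the narrower peak, and does not ask for it to be in the Pbx peak. Its distance from the Shox2 centre is thus bounded by the rule, and nothing is read from which centre was nearer.

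In limb Shox2 peaks of like width, palate positions fell at similar distances from the centre with and without Pbx. At tissue-shared peaks off Pbx the median distance was 57.5 bp (1357 positions), which is less than 65 bp, but those peaks are narrower. In peaks of 300 bp or less the medians were 46.5 bp at 3-list sites and 41.5 bp off Pbx, in peaks above 300 and up to 500 bp they were 65 and 66 bp, and in wider peaks 117.5 and 110.5 bp. The central 50% of the limb Shox2 peak held 65.6% of palate positions at both kinds of site (62.2 to 68.9% at 3-list sites, 63.0 to 68.1% off Pbx). The mean signed offset was -0.431 bp, so the positions were spread evenly to the left and right.

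**Figure D3:**
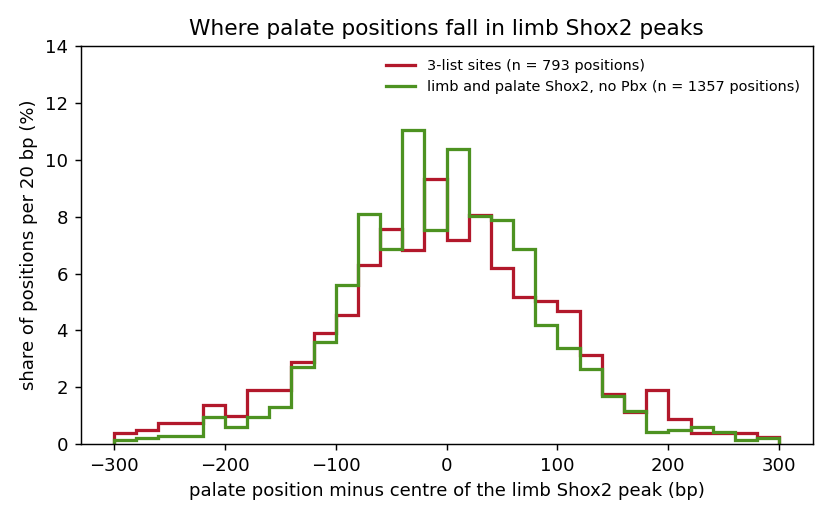
Distance from the centre of the limb Shox2 peak to the palate position (bp, negative to the left on the chromosome), as the share of positions per 20 bp, for 793 positions at 3-list sites and 1357 in tissue-shared peaks off Pbx. Positions beyond 300 bp are not drawn. Both distributions centre near 0, with medians of the absolute distance of 65 and 57.5 bp.

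Most sites were nested. The limb Shox2 peak lay wholly within the Pbx peak at 710 of 781 sites (90.9%, 88.7 to 92.8%), against 87.1% (86.4 to 87.8%) of the peaks on Pbx without a palate position. The Shox2 centre was within the Pbx peak at 773 sites. The rule does not ask for the palate position itself to be on Pbx, but 782 of the 793 positions (98.6%) were inside a Pbx peak, and 681 (85.9%) were in its central 50%. Since most of these Shox2 peaks lie within the Pbx peak, a position in the one is in the other by construction.

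The direction of the offsets was not part of the rule, but both are measured from the same point. Measured from the limb Shox2 centre, the palate position lay on the same side as the Pbx centre for 476 of 792 positions with both offsets above 0 (60.1%, 56.6 to 63.5%). Where both offsets were over 50 bp it was 258 of 384 (67.2%, 62.2 to 71.9%), and where both were over 100 bp it was 133 of 183 (72.7%, 65.6 to 79.0%). Taking nested sites alone gave 58.9% of 717 positions. Spearman's rho between the offsets was 0.26 across the 793 positions. All offsets are taken from 1 point, the midpoint of the limb Shox2 peak, which is not a summit. A shift of that point moves both offsets to the same side, so an even split is no baseline for these shares. The limits of 50 and 100 bp do not remove that. How far an uneven peak shape moves that midpoint was not tested.

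**Figure D4:**
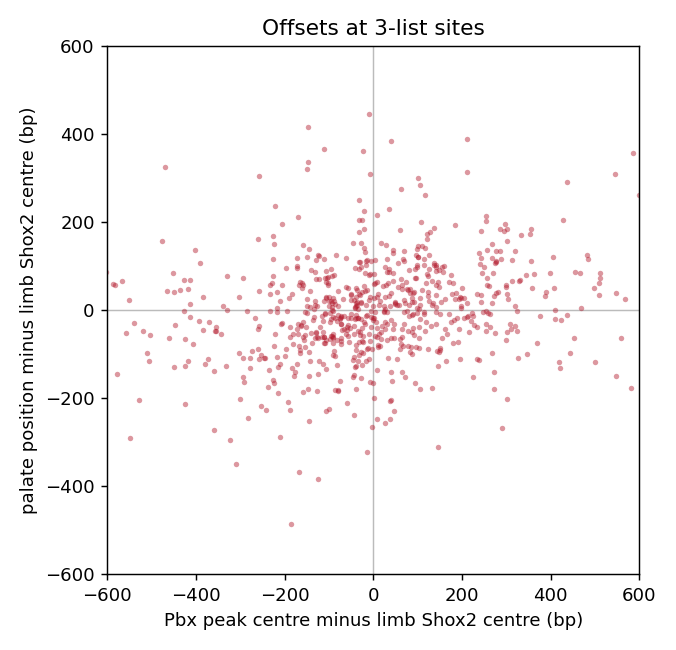
Each point is a 3-list site: the offset of its Pbx peak centre (x, bp) and of its palate position (y, bp) from the centre of its limb Shox2 peak; where a site has more than 1 palate position, the one highest in the palate list is drawn. The axes stop at 600 bp on either side, which leaves out 46 of the 781 sites. More points fall at the lower left and upper right, where both offsets have the same sign, than at the other corners. Over 792 positions, drawn or not, that share was 60.1%, and an even split is no baseline for it.

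The edges of the rule were thinly filled on the Pbx side. The sites with the shortest overlap with Pbx were chr13:71922675-71922877 (32 bp shared), chr5:13125199-13125567 (48 bp) and chr9:83201217-83201440 (49 bp), against a median overlap of 375 bp. Just outside, the tissue-shared peaks nearest to a Pbx peak were chr10:104235981-104236538 (19 bp away), chr4:101379938-101380107 (24 bp) and chr9:62498171-62499011 (30 bp). Of the 1348 tissue-shared peaks off Pbx, 7 had a Pbx peak within 100 bp of their edge and 60 (4.45%) within 1000 bp. The others were more than 1000 bp from any listed Pbx peak.

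The palate side had more near misses by count, but the sides are unlike. Palate entries are 1 bp wide, while Pbx peaks had a median width of 897 bp. Just inside were chr11:109576703-109576916, whose palate position is its last base, chr15:96941775-96942491 (1 bp inside the last base) and chr10:119683404-119683628 (3 bp). Just outside were chr16:74413216-74413396, with a palate position 1 bp beyond its edge, chr7:90962682-90962894 (2 bp) and chr1:158894893-158895213 (4 bp). Of the 8218 peaks on Pbx without a palate position, 108 (1.31%) had one within 100 bp of the edge, 317 (3.86%) within 500 bp and 439 (5.34%) within 1000 bp.

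Most sites held single entries, with 769 sites holding 1 palate position and 12 holding 2. In those 12 sites the positions were a median of 433 bp apart. The widest pair was in chr4:54482055-54484336, the widest 3-list site at 2282 bp, with palate positions 54482380 and 54484143, 1763 bp apart. It was followed by chr3:5329781-5331439 (1100 bp apart) and chr8:111501731-111502604 (706 bp). A single site met 2 Pbx peaks, chr8:129236703-129237485, which shared 616 bp with a Pbx peak on line 19497 and 84 bp with another on line 24130. In the other direction, 8 Pbx peaks covered 2 of the 3-list sites each.

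Each of the 19 autosomes held 3-list sites, from 24 on chromosome 19 to 62 on chromosome 2. As a share of an autosome's limb Shox2 peaks they ran from 1.74% on chromosome 3 (48 sites) to 3.20% on chromosome 7 (37 sites), around the 2.30% of the whole list. Chromosome X held 3 sites among 705 limb Shox2 peaks (0.426%, 0.0878 to 1.24%), against 2.34% (2.18 to 2.51%) on the autosomes. Palate positions are few on X, with 128 in all. Of the 705 limb Shox2 peaks on X, 19 held a palate position and 126 were on Pbx. Over the whole limb Shox2 list these shares were 6.28% and 26.5%. Of the peaks on Pbx, 2.38% were 3-list sites on X, and 6.87 to 11.2% on the autosomes.

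The 3 sites on X stood high in the limb Shox2 list. The highest was chrX:141836310-141837028, 719 bp wide, on line 292 of the limb Shox2 list and line 1347 of the palate list. The others, chrX:36064097-36065301 and chrX:47994546-47994890, stood on limb Shox2 lines 2807 and 2949. All 3 were thus in the first decile of the limb Shox2 list, which held 260 of all 781 sites (33.3%).

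**Figure D5:**
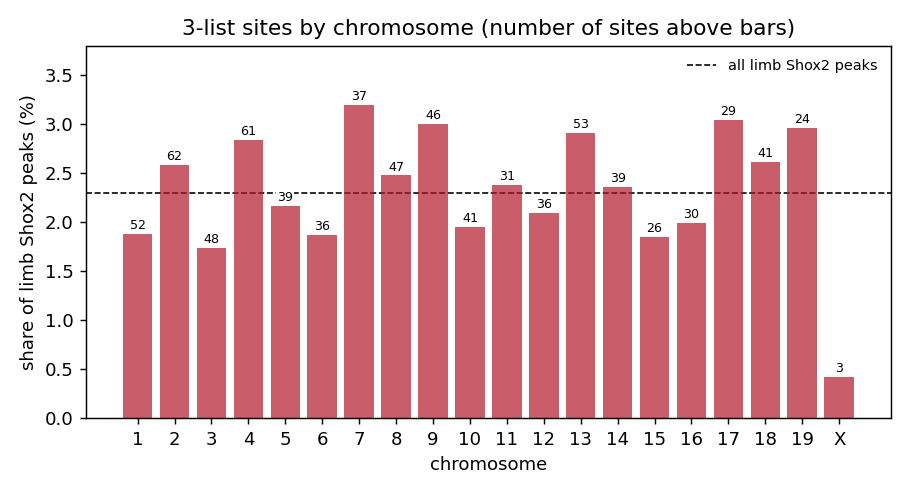
Share (%) of limb Shox2 peaks on each chromosome that are 3-list sites, with the number of sites above each bar; the dashed line is the share over all limb Shox2 peaks, 2.30%. The autosomes lie between 1.74 and 3.20%, and X is at 0.426% with 3 sites.

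In windows of 1 Mb the sites were mostly single. Of 2435 windows with any limb Shox2 peak, 1884 had no 3-list site, 398 had 1 and 107 had 2. The remaining 46 windows had 3 to 7 and held 169 sites (21.6%). The windows named next are those with the most sites, so their counts are a description.

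Chromosome 7 from 143 to 144 Mb had 7 sites among 48 limb Shox2 peaks (14.6%, 6.07 to 27.8%), and all 7 of its tissue-shared peaks were on Pbx. So were 30 of its 48 limb Shox2 peaks, against 26.5% over the whole list. Its leading site, chr7:143193827-143194478, stood on line 16 of the limb Shox2 list, line 2689 of the Pbx list and line 1268 of the palate list. The window also held chr7:143248117-143249777, on the widest Pbx peak met by any 3-list site (6503 bp, line 74). With 56 Pbx peaks and 28 palate positions, this window was rich in all 3 lists.

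Adjacent windows of chromosome 18, from 54 to 55 Mb and from 55 to 56 Mb, had 7 sites each, among 70 and 75 limb Shox2 peaks. Their leading sites were chr18:54537343-54538260 (918 bp, limb line 1512, palate line 1864) and chr18:55537527-55537710 (184 bp, limb line 15646, palate line 1803). These windows were among the densest of the limb Shox2 list, and 10 limb peaks in each held a palate position.

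Chromosome 13 from 51 to 52 Mb had 6 sites among only 17 limb Shox2 peaks (35.3%, 14.2 to 61.7%), the largest share among the 9 windows with 5 or more sites. All 6 of its tissue-shared peaks were on Pbx, as were 11 of its 17 limb Shox2 peaks. Its leading site, chr13:51354160-51354855, stood on limb line 818 and Pbx line 2773 and held 2 palate positions, 405 bp apart. Another, chr13:51441451-51441882, held the palate position on line 25 of the palate list. Chromosome 5 from 132 to 133 Mb had 5 sites among 63 limb Shox2 peaks, led by chr5:132559533-132560332 (800 bp, limb line 276). Chromosomes 9 (41 to 42 Mb), 16 (93 to 94 Mb), 17 (86 to 87 Mb) and 19 (56 to 57 Mb) had windows with 5 sites as well.

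Of the 6 windows with the most limb Shox2 peaks, the pair on chromosome 18 had 7 sites each and the other 4 had 1 or 2. The window with the most peaks, chromosome 3 from 66 to 67 Mb, had 93 limb Shox2 peaks, 35 of them on Pbx and 9 with a palate position, but 2 sites (2.15%, 0.261 to 7.55%). Chromosome 1 from 165 to 166 Mb had 2 sites among 79 peaks, chromosome 14 from 23 to 24 Mb had 1 among 73, and chromosome 9 from 87 to 88 Mb had 2 among 70. In these 4 windows 33 to 35 limb peaks were on Pbx, more than the 22 and 32 in the windows of chromosome 18, which had 7 sites each. Counts of 1 to 7 sites have wide intervals, and single windows were not tested against each other.

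Neighbouring 3-list sites were mostly far apart, with a median distance of 563.9 kb to the nearest other site (quartiles 132.5 and 1619.1 kb). Another site lay within 10 kb of 32 sites (4.10%), forming 16 pairs and no longer run. In 8 of the pairs both sites were on the same Pbx peak, for example chr2:114797383-114798261 (879 bp from end to end) and chr10:119682672-119683628 (957 bp). The 5 pairs with the largest span, from 4637 to 9196 bp, were on chromosomes 6, 9, 12, 14 and 19, each with a Pbx peak for either site. Within 100 kb, 158 sites (20.2%) had another.

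The surroundings of the sites held more entries of the other lists than those of limb Shox2 peaks at large. Within 50 kb of the centre, 3-list sites had a mean of 2.96 further Pbx peaks and 1.55 further palate positions, against 1.90 and 0.944 over all limb Shox2 peaks. Peaks with Pbx alone had 2.51 further Pbx peaks and 1.10 palate positions. Tissue-shared peaks off Pbx had 2.04 and 1.32. The number of other limb Shox2 peaks differed less, with 3.39 around 3-list sites, 3.52 around peaks with Pbx alone and 3.07 over all. No further palate position lay within 50 kb of 253 sites (32.4%, 29.1 to 35.8%), against 44.7% of peaks with Pbx alone, 36.8% of tissue-shared peaks off Pbx and 53.9% of peaks with neither.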

How the data were processed

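Per the labels' protocols, ChIP was done with a commercial high-sensitivity kit, and Illumina libraries were made from the DNA. Bowtie and MACS2 with build mm9 are named per the submitters' processing notes, in no stated role. What versions and settings were run, and what ended each list, is not given in the sources used here. Both limb lists hold 33915 entries, and why their lengths are equal is not stated. Each step before the lists was the authors'. The deposited lists hold coordinates (chromosome, start and end), the palate list positions of 1 bp, and no other value. Unplaced sequences and the mitochondrial genome held 70 Pbx peaks and 3 palate positions, and no limb Shox2 peak. All were kept.

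Overlaps were found with Python 3.11.15 (NumPy 2.4.6, pandas 2.3.3, SciPy 1.17.1, matplotlib 3.10.9). The code was checked on simulated lists with planted sites. Distances are from peak midpoints, and where a site met several Pbx peaks the longest overlap was used. Sites were named by rule: the 6 lowest sums of places, the members of the 5 windows of 1 Mb with the most sites, the widest runs with gaps up to 10 kb, the sites just inside and outside the rule, and sites with 2 palate positions or Pbx peaks. The 16 pairs tied, and span broke the tie. That choice, the sites on X, the windows densest in limb Shox2 peaks and the side of the offsets were chosen after values were seen. The members and rules were set with earlier results of these data known. Planned searches for motifs, transcription starts and gene lists could not be done without a genome and annotation of that build.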

Additional observations from a re-analysis of the deposited data

How the results depend on the processing

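Of 21 alternatives, 13 stayed close to the reported value, within 1.5 times for counts and within the 95% binomial interval for shares and medians, and 8 did not. The number of sites stayed at 771 to 778 when 50% of the Shox2 peak or its centre had to be on Pbx, when the palate position had to be on Pbx, or on autosomes alone. It was 363 with every limb peak at 200 bp, which narrows all Pbx peaks and most Shox2 peaks but widens Shox2 peaks below 200 bp. In the first 50% of each list it was 320, and in the widest 50% of each limb list 495. The last 2 settings keep fewer peaks by construction. At 200 bp the median distance of the palate position from the Shox2 centre was 43 bp, which that width bounds. The share of sites with another within 50 kb was 11.9%, and windows of 500 kb left 12.8% of sites in windows with 3 or more. The wider limit can only raise the first share and the smaller windows can only lower the second, so both directions were fixed in advance. The share of palate positions on the Pbx side was 67.2% with both offsets over 50 bp and 72.7% with both over 100 bp. These limits, the first 50% of each list (60.4%) and nested peaks (58.9%) were chosen for this share after seeing the data. No paired analysis was possible because no group holds more than 1 library, so leaving out replicates could not be done either. Alternatives for transcription starts and motifs were not run. With no depth in the files, absence from a list may mean no binding, too few reads or a place beyond the end set for the list, which cannot be told apart.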
